A study of Mus musculus with 12 samples.

Results

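The Toll-like receptors, the inflammasome genes and the adaptors that link them to signalling were described as a set of 35 genes, listed by gene name. All 35 were among the 16969 genes of the table, and all 35 had normalised read counts that summed to at least 10 over the libraries, as did 12889 genes in all. The RNA came from livers of C57BL/6 mice of the genotype Prom1CreERT2-nLacZ/+;Rosa26Lsl-GFP/+. In these mice the *Prom1* promoter drives a tamoxifen-inducible Cre recombinase, which switches on GFP for good in cells that express *Prom1* and in their progeny. By the study's methods the knock-in line came from C57BL/6N and the Rosa26 reporter line from C57BL/6J, so the mice may carry both substrains. All mice were given tamoxifen as adults of 6 weeks, 7 days before surgery. The 3 groups were sham mice at day 0, mice 3 days after ligation of the bile duct (BDL), a surgery that dams up bile, and mice 14 days after BDL. No sham library was listed for the later times, so BDL cannot be told apart from time since tamoxifen and surgery, or from age. By the paper's figure legend, females outnumbered males at day 0, and males outnumbered females in both BDL groups. Sex was thus not balanced between the groups, and its part in the differences was not tested. Dissociated livers were enriched for nonparenchymal cells, and living GFP(+) cells were sorted by flow cytometry. The labels list 3 libraries for each of day 0 and BDL day 3 and 6 for BDL day 14, of which 4 entered the table.

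Toll-like receptors (TLRs) sense microbial lipids, proteins and nucleic acids. Those on the cell surface bind lipopeptides, lipopolysaccharide (LPS) or flagellin, and those in endosomes bind RNA, DNA or protozoan profilin. Through the adaptors *Myd88* and *Ticam1* they reach the IRAK kinases, the ubiquitin ligase *Traf6* and the NF-kB and IRF factors. NOD receptors sense peptidoglycan fragments in the cytosol, and inflammasome sensors assemble with *Pycard* (ASC) to activate caspase-1, which matures IL-1 family cytokines and cleaves gasdermin D. In the liver, Kupffer cells, the resident macrophages, meet microbial products that arrive from the gut in portal blood.

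The values below are the authors' mean normalised read counts of each group, and, for each gene, the value of the library in which it was highest, whose group is not named. No value per library was analysed, and the depth per library is unknown. The spread between libraries was recovered for each gene from the distance between its group means and its geometric mean over the 10 libraries, and was used to give the log2 ratio of 2 group means a standard error (SE) and a p-value moderated with limma. P-values were adjusted by the Benjamini-Hochberg method over 12889 genes and called at 0.05 or less. They measure the spread between these libraries only, and both BDL groups were compared with the same 3 day 0 libraries. They also take the spread to be equal in all groups, whereas the paper reports that replicates varied more with longer injury. The SE and p-values may be off for that reason. The same geometric mean limits how far any library can lie from the mean of its group. A pair of groups was said not to overlap where no set of library values that gives the deposited means could overlap.

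Markers of macrophages and of biliary cells were both read in the sorted cells. Most genes of cholangiocytes and progenitors, such as *Krt19* with means of 21.5, 12.7 and 14.3 at day 0, BDL day 3 and BDL day 14, and *Prom1* with 6.66, 0.956 and 1.76, were low, and 3 of 11 such markers were too low to be kept. *Spp1* (osteopontin), which macrophages also express, was the exception with 459, 175 and 792, and made up most of the sums of this list, 543, 218 and 842. All 10 macrophage markers were kept, with summed means of 6377, 11098 and 15440. *Lyz2* (lysozyme, 2280, 4560 and 11200) carried much of this difference, and without it the sums were 4097, 6538 and 4240. The 8 Kupffer cell markers summed to 10375, 22621 and 1477, and 8 recruited monocyte markers to 507, 443 and 2060. In such bulk samples, fewer cells of a type and less RNA per cell cannot be told apart.

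At BDL day 14 the nucleic acid sensors *Tlr13* and *Tlr7* and the signalling ligase *Traf6* were upregulated, whereas the profilin receptor *Tlr12*, the peptidoglycan sensor *Nod1* and the flagellin sensor *Naip5* were downregulated. Of these 6, *Tlr13* also passed the test at BDL day 3. The remaining 29 members did not pass the test in either comparison against day 0, among them *Tlr4*, *Myd88*, *Nlrp3* and *Casp1*. Over all 35 members the median log2 ratio at the early and the late time was 0.17 and 0.13, beside -0.02 and -0.04 over all genes tested. These results hold for the counts as deposited. Scaled to the same total, *Tlr6*, *Tlr8*, *Ticam2*, *Irak1* and *Pycard* also passed upward at BDL day 14, where 14.5% of all genes did.

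At BDL day 3, 1 member rose and 0 fell, where 3.67% and 5.71% of all genes did. At an unadjusted p under 0.05, 2 members were higher and 2 lower, against 10.7% and 13.9% of all genes. By fold alone, 5 members were more than 1.5-fold higher and 4 more than 1.5-fold lower than at day 0, against 19.2% and 29.2% of all genes. At BDL day 14, 3 members rose and 3 fell, where 6.25% and 8.97% of all genes did. At an unadjusted p under 0.05, 6 were higher and 4 lower, against 13.1% and 15.7%. By fold alone, 10 were higher and 11 lower, against 21.2% and 28.8% of all genes. The counts of members that rose or fell by BDL day 14 thus lay near the share of all genes. Libraries could not overlap for 1 member that was higher and 0 that were lower at BDL day 3, against 2.51% and 2.26% of all genes. At BDL day 14 this held for 2 higher and 2 lower members, against 2.75% and 3.13%. A weaker bound that used only the group means and the highest library separated 0 members at either time, against 2.02% of all genes at BDL day 3 and 1.65% at BDL day 14.

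**Figure D1:**
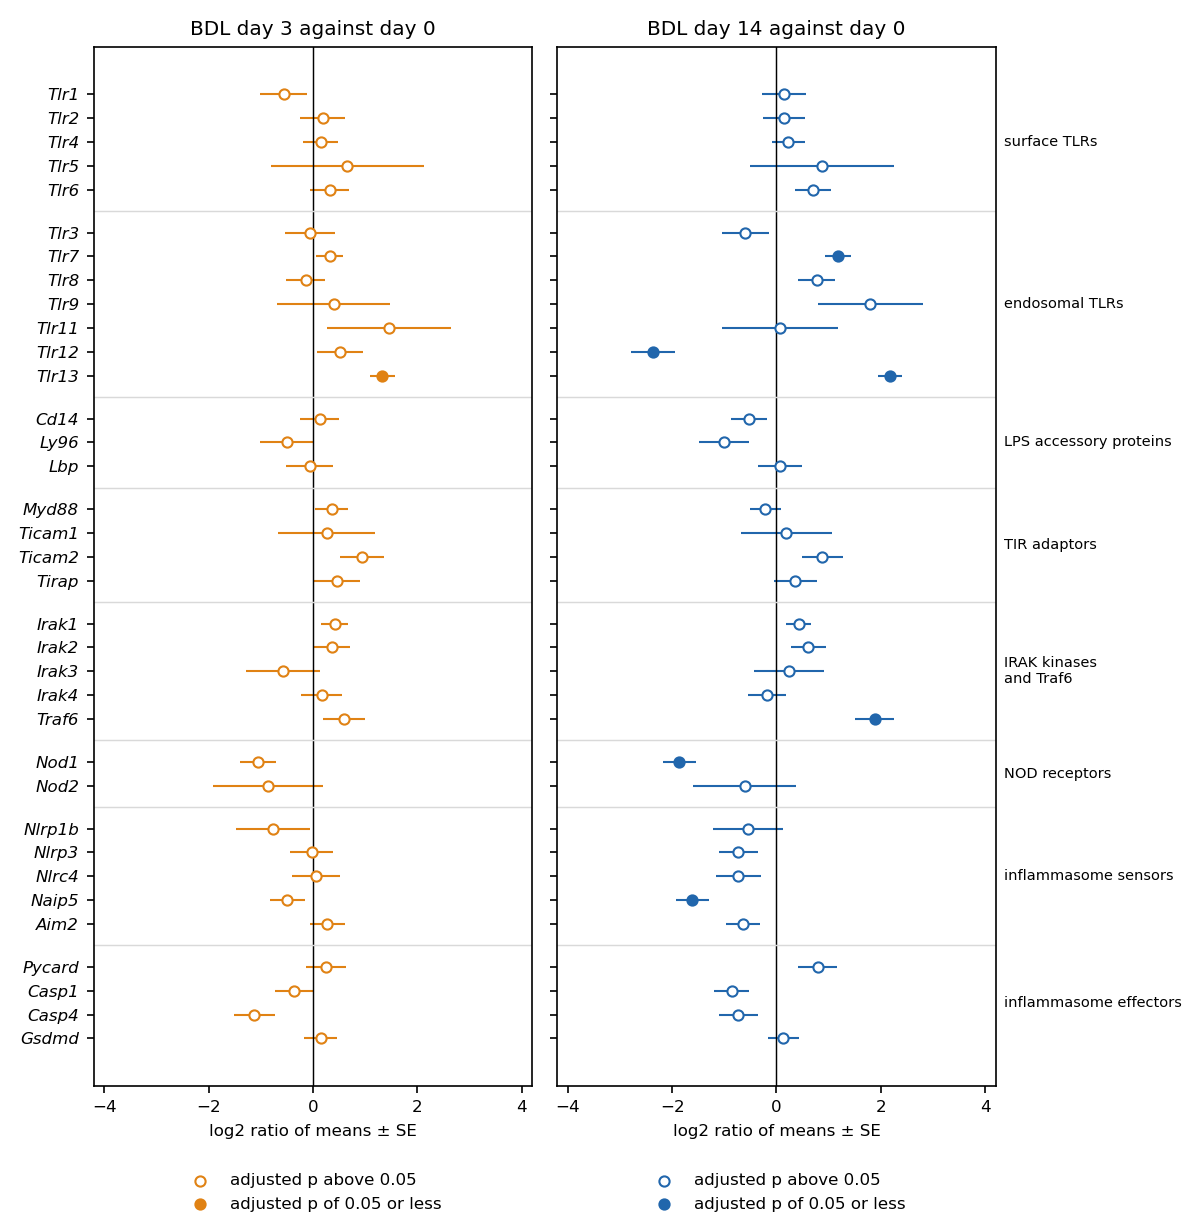
Log2 ratio of group means against day 0 for each of the 35 members, grouped by role, at BDL day 3 (left) and BDL day 14 (right). Points are the ratios and bars the SE from the recovered spread, and filled points have an adjusted p of 0.05 or less. Only Tlr13 is filled on the left (1.33); on the right Tlr13 (2.17), Traf6 (1.88) and Tlr7 (1.18) are filled above 0 and Tlr12 (-2.36), Nod1 (-1.86) and Naip5 (-1.61) below it.

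The 5 of these 6 genes that have an entry in the promoter table of RefSeq (GRCm38.p6) are shown by the bases just upstream of their start, because they are the members that passed the test at BDL day 14. Of the 35 members, 28 had an entry, and *Tlr7* had none. Each sequence is written 5′ to 3′ on the strand of its gene, and capitals mark the PU.1 core GAGGAA, the DNA word read by the myeloid factor PU.1. For *Tlr13*, 71 bases next to the start were left out because GENCODE places them in an exon of the gene, and the RefSeq start of *Naip5* lies 1013 bases from that of GENCODE.
Tlr13, chrX:106143025-106143203, plus strand: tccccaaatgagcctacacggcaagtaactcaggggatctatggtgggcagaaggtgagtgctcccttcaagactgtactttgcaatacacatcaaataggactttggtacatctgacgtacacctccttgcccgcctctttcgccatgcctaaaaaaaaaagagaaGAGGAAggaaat
Traf6, chr2:101678170-101678419, plus strand: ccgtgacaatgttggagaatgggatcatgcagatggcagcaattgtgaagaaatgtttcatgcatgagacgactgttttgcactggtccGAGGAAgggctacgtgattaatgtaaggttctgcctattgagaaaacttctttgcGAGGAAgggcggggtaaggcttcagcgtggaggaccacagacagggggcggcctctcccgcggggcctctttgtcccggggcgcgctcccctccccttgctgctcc
Tlr12, chr4:128618620-128618869, minus strand: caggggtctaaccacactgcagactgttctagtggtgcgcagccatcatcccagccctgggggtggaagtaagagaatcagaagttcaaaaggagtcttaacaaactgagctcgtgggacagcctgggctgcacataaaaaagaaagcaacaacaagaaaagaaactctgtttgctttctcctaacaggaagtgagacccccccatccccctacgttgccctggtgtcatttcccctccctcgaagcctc
Nod1, chr6:54972613-54972862, minus strand: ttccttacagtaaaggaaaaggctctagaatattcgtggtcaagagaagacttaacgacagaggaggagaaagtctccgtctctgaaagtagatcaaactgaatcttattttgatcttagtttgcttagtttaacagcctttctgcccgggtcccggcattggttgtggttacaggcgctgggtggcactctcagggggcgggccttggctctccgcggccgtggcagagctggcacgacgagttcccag
Naip5, chr13:100247337-100247586, minus strand: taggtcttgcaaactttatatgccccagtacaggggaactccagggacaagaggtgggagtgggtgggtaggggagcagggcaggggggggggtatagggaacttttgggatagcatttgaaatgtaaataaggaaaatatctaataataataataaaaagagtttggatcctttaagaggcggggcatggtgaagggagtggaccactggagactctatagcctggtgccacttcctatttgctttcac
The PU.1 core stood on the gene's strand at 83 bases before the start of *Tlr13* and at 161 and 106 bases before that of *Traf6*. It was not found in the 250 bases before *Tlr12*, *Nod1* or *Naip5*. Among the 28 members with an entry, 11 held it on either strand, beside 23.3% of all 32851 windows. Other words searched on both strands of the same bases were the E-box CACGTG of MITF and TFE factors (2 members and 6.02% of windows), the AP-1 word TGANTCA (1 member and 6.75%) and the interferon response core GAAANNGAA (4 members and 7.13%). None of these 3 was in the 5 sequences shown. No motif overlapped another there, and a match describes letters, not binding.

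Among the 7 endosomal TLRs, *Tlr13* rose at both times and *Tlr7* rose at BDL day 14, while *Tlr12* fell. *Tlr13* (chrX:106143204-106160493), which senses bacterial ribosomal RNA, had mean normalised read counts of 50.8, 128 and 228 in the 3 groups in order of time. Its day 0 libraries lay between 29.4 and 75.7, those of BDL day 3 between 74.2 and 191, and those of BDL day 14 between 129 and 268, the value of the highest library. The libraries of each BDL group had to lie above those of day 0. The log2 ratio against day 0 was 1.33 at BDL day 3 (SE 0.24, adjusted p = 0.0037) and 2.17 at BDL day 14 (SE 0.23, adjusted p = 1.72e-05).

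*Tlr7* (chrX:167304929-167330558), a receptor for single-stranded RNA, had means of 53.1, 66.2 and 120. Day 0 libraries could lie between 30.4 and 79.7, BDL day 3 libraries between 37.9 and 99.3, and BDL day 14 libraries between 67.1 and the highest library, 145. The BDL day 14 libraries could not overlap those of day 0. The log2 ratio at BDL day 14 was 1.18 (SE 0.25, adjusted p = 0.00445), and at BDL day 3 it was 0.32 (SE 0.26, adjusted p = 0.5).

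*Tlr12* (chr4:128615443-128618619) encodes a receptor for protozoan profilin and moved the other way, from 24.7 at day 0 and 35.4 at BDL day 3 to 4.81 at BDL day 14. No BDL day 14 library exceeded 10.1, while the day 0 libraries lay at 7.18 or above and those of BDL day 3 at 10.3 or above. Taken jointly, the BDL day 14 libraries had to lie below those of both other groups. The log2 ratio against day 0 was -2.36 (SE 0.42, adjusted p = 0.00144) at BDL day 14 and 0.52 (SE 0.45, adjusted p = 0.519) at BDL day 3.

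The other 4 endosomal TLRs did not pass the test. *Tlr8*, a neighbour of *Tlr7* on chromosome X, had means of 12.7, 11.5 and 21.7, with a log2 ratio of 0.77 (SE 0.36, adjusted p = 0.166) at BDL day 14. *Tlr9*, which senses unmethylated DNA, was low, with means of 1.75, 2.31 and 6.1, and its log2 ratio of 1.8 had an SE of 1.01. *Tlr11*, the partner of *Tlr12* in profilin sensing, was also low, with 0.652, 1.79 and 0.678, and its log2 ratio of 1.46 at BDL day 3 had an SE of 1.18. *Tlr3*, a receptor for double-stranded RNA, had 11.3, 10.9 and 7.48.

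**Figure D2:**
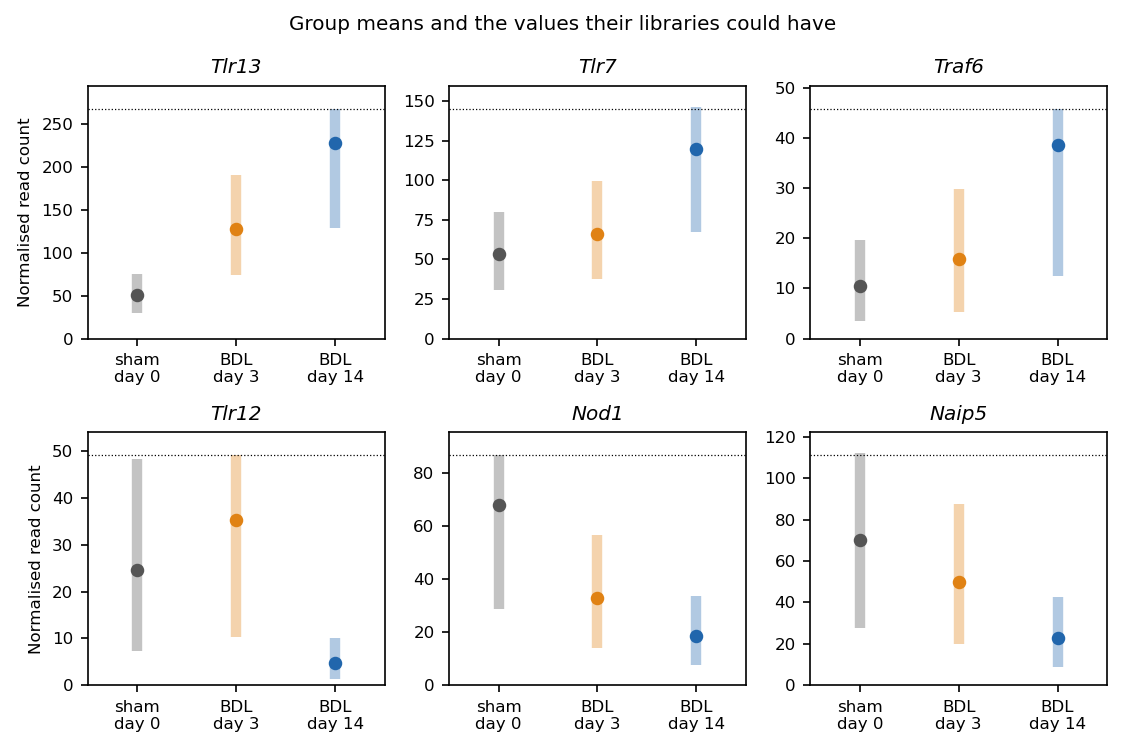
Normalised read counts of the 6 members that passed the test against day 0, in sham day 0, BDL day 3 and BDL day 14 libraries. Points are the authors' group means, shaded bars the range that a library of the group could have given the deposited means, and the dotted line the highest single library. For Tlr13 the BDL day 14 bar runs from 129 to 268 and the day 0 bar ends at 75.7; for Tlr12 the BDL day 14 bar ends at 10.1.

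Surface TLRs showed no change that passed the test. *Tlr2*, the lipopeptide receptor, had means of 61.9, 70.4 and 68.9, with a log2 ratio of 0.15 (SE 0.4, adjusted p = 0.846) at BDL day 14. *Tlr4*, the LPS receptor, had 29.9, 33.2 and 35.1, with 0.23 (SE 0.31, adjusted p = 0.672). Of the partners of *Tlr2*, *Tlr1* had 27.8, 18.9 and 30.8, and *Tlr6* had 12.7, 15.9 and 20.7, a log2 ratio of 0.7 (SE 0.35, adjusted p = 0.202) at BDL day 14 that was 0.42 without its highest library. The flagellin receptor *Tlr5* had 0.843, 1.33 and 1.54, at which level the SE of its log2 ratio was 1.38 or more. Its fold of 1.83 at BDL day 14 therefore lay within the error. Its log2 ratio there went from 0.87 to 0.37 without the highest library if that library lay at BDL day 14. If it lay at BDL day 3, the ratio was unchanged.

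The LPS accessory proteins also did not pass the test. *Cd14*, which hands LPS to the receptor complex, had means of 272, 298 and 188, and its log2 ratio at BDL day 14 was -0.53 (SE 0.35, adjusted p = 0.346). *Ly96* (MD-2), the LPS-binding partner of *Tlr4*, had 10, 7.09 and 5, a log2 ratio of -1 (SE 0.48, adjusted p = 0.187) at BDL day 14. Its highest library, 15.9, could only lie at day 0, and without it the log2 ratio at BDL day 14 was -0.5. *Lbp*, the LPS carrier that hepatocytes secrete, had 31.6, 30.3 and 33.1.

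Of the adaptors and kinases that carry the signal inward, only *Traf6* passed the test. *Traf6* (chr2:101678429-101701669), the ubiquitin ligase below the IRAK kinases, had means of 10.5, 15.9 and 38.6. Day 0 libraries could reach 19.7 and BDL day 14 libraries could be as low as 12.4, so an overlap was possible. The log2 ratio was 0.6 (SE 0.4, adjusted p = 0.39) at BDL day 3 and 1.88 (SE 0.37, adjusted p = 0.00321) at BDL day 14. *Traf6* also serves the receptors of IL-1 and of TNF family ligands.

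*Myd88*, the adaptor shared by nearly all TLRs, had means of 54, 69.5 and 46.8, and neither time differed from day 0 by more than 1.5-fold. *Ticam2* (TRAM), the bridging adaptor of *Tlr4*, had 8.39, 16.1 and 15.4, with log2 ratios of 0.94 (SE 0.42, adjusted p = 0.173) and 0.88 (SE 0.39, adjusted p = 0.147). *Ticam1* (TRIF) and *Tirap* (Mal) had means between 6.89 and 10.8 in all groups. Exons of *Ticam2*, *Myd88* and *Tirap* share 14.5%, 11.3% and 9.84% of their bases with other genes, and reads from those bases may be uncertain.

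Among the IRAK kinases, *Irak1* had 42.6, 57 and 57.4 and the initiating kinase *Irak4* had 26.8, 30.1 and 23.7. *Irak2*, which sustains signalling, had 15.2, 19.5 and 23.2, a log2 ratio of 0.61 (SE 0.34, adjusted p = 0.258) at BDL day 14, or 0.29 without its highest library. *Irak3* (IRAK-M), which restrains the pathway, had 10.3, 6.88 and 12.2, with a recovered SD between libraries of 1.11 on the log2 scale. With the counts as deposited, *Myd88*, *Irak4* and *Irak1* thus stayed within 1.5-fold of day 0 at both times, and *Traf6* did not.

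The 2 NOD receptors and the 5 inflammasome sensors all had lower means at BDL day 14 than at day 0, and 1 of each kind passed the test. The median log2 ratio over all genes tested was then -0.04. Sensors outside the members went both ways: *Naip1*, *Naip2* and *Mefv* had higher means at BDL day 14 than at day 0, and *Naip6*, *Nlrp6* and *Nlrp12* lower ones. *Nod1* (chr6:54923949-54972612) had means of 67.9, 32.9 and 18.7. Day 0 libraries lay at 28.9 or above and BDL day 14 libraries at 33.8 or below, and jointly they could not overlap. The log2 ratio was -1.05 (SE 0.34, adjusted p = 0.0635) at BDL day 3 and -1.86 (SE 0.32, adjusted p = 0.00108) at BDL day 14. *Nod2*, the muramyl dipeptide sensor, had 3.05, 1.68 and 2, and its log2 ratio at BDL day 14 was -0.61 (SE 0.99). Its highest library, 5.21, could lie at day 0 or at BDL day 14. The log2 ratio was 0.02 when it was taken from day 0, and would be below -0.61 if it lay at BDL day 14.

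*Naip5* (chr13:100211739-100246323), which binds flagellin and then engages *Nlrc4*, had means of 69.9, 49.6 and 22.9. Its day 0 libraries lay at 27.8 or above and its BDL day 14 libraries at 42.6 or below, so an overlap was possible. The log2 ratio was -0.49 (SE 0.34, adjusted p = 0.413) at BDL day 3 and -1.61 (SE 0.32, adjusted p = 0.0033) at BDL day 14. The highest library, 111, could only lie at day 0, and without it the log2 ratio at BDL day 14 was -1.11. *Naip5* has close copies, which may share reads with it. Their means at day 0, BDL day 3 and BDL day 14 were 5.69, 16.7 and 6.16 for *Naip1*, 20.2, 39.7 and 45.9 for *Naip2*, and 12.3, 16.8 and 9.14 for *Naip6*, and none of these 3 passed the test against day 0.

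Of the other sensors, *Nlrp3*, which responds to ion fluxes and membrane damage, had 21.9, 21.6 and 13.2. Its log2 ratio at BDL day 14 was -0.73 (SE 0.38, adjusted p = 0.222). Without its highest library this was -0.26 if that library lay at day 0, and unchanged if it lay at BDL day 3. *Nlrc4*, the partner of the NAIP proteins, had 13.4, 14 and 8.1, and the DNA sensor *Aim2* had 26.3, 31.9 and 16.9. Both were more than 1.5-fold lower at BDL day 14 than at day 0 without passing the test (adjusted p = 0.291 and 0.207). *Nlrp1b*, a sensor of protease activity with a close copy in *Nlrp1a*, had 7.8, 4.6 and 5.33.

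Inflammasome effectors did not pass the test at either time. *Pycard*, the ASC adaptor, had means of 51.8, 61.8 and 89.3, with a log2 ratio of 0.79 (SE 0.37, adjusted p = 0.172) at BDL day 14. Its highest library, 166, could only be a BDL day 14 library, and without it the log2 ratio was 0.3. *Casp1*, the caspase that *Pycard* helps to activate, had 55.8, 43.6 and 30.7, a log2 ratio of -0.86 (SE 0.34, adjusted p = 0.0972) at BDL day 14. Without its highest library this was -0.56 if that library lay at day 0, and unchanged if it lay at BDL day 3. *Casp4*, the mouse caspase that binds cytosolic LPS, had 22.1, 10.2 and 13.3, with -1.12 (SE 0.4, adjusted p = 0.0927) at BDL day 3. Its log2 ratio at BDL day 14 was -0.73, or -0.34 without its highest library. *Gsdmd*, the pore-forming substrate of both caspases, had 50.8, 56.2 and 55.6. Of the exon bases of *Pycard*, 12.8% are shared with another gene.

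BDL day 14 was also compared with BDL day 3 directly, to ask whether the members differed between the early and the late time. *Tlr13* (log2 ratio 0.83, SE 0.23, adjusted p = 0.0331), *Tlr7* (0.86, SE 0.25, adjusted p = 0.0417) and *Traf6* (1.28, SE 0.37, adjusted p = 0.0448) rose. *Tlr12* (-2.88, SE 0.42, adjusted p = 4.54e-04) and *Naip5* (-1.11, SE 0.32, adjusted p = 0.0426) fell. *Nod1* did not pass the test here (-0.82, SE 0.32, adjusted p = 0.14). Thus 3 members rose and 2 fell, against 4.34% and 4.03% of all genes. Only the call of *Tlr12* held when the spread was moderated without a trend on the mean or when the adjusted p had to be 0.01 or less. By fold alone, 7 members were higher and 8 lower, against 21.2% and 19.7% of all genes. Libraries could not overlap for 0 higher members and for 1 lower member, *Tlr12*, against 1.27% and 1.92% of all genes, and the weaker bound separated 0 members, against 0.582%.

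Per kilobase of exon, *Cd14* was the most abundant member in each group, with 157, 172 and 109 normalised read counts per kilobase. *Tlr13* stood at 11.8, 29.7 and 53, and moved from the 10th place at day 0 to the 2nd at both BDL times. *Tlr7* went from 13 to 29.4 per kilobase, the 9th to the 3rd place. *Tlr12* went from 7.77 at day 0 and 11.1 at BDL day 3 to 1.51 at BDL day 14, the 30th place. At day 0 *Casp1* stood second with 37.3, followed by *Gsdmd* with 21.4, *Myd88* with 21 and *Tlr2* with 20.5, and these last 3 levels differed by less than the recovered SD between libraries (0.42 to 0.69 on the log2 scale). The lowest members were *Tlr5*, *Tlr11*, *Tlr9* and *Nod2*, at up to 0.608 per kilobase at day 0.

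**Figure D3:**
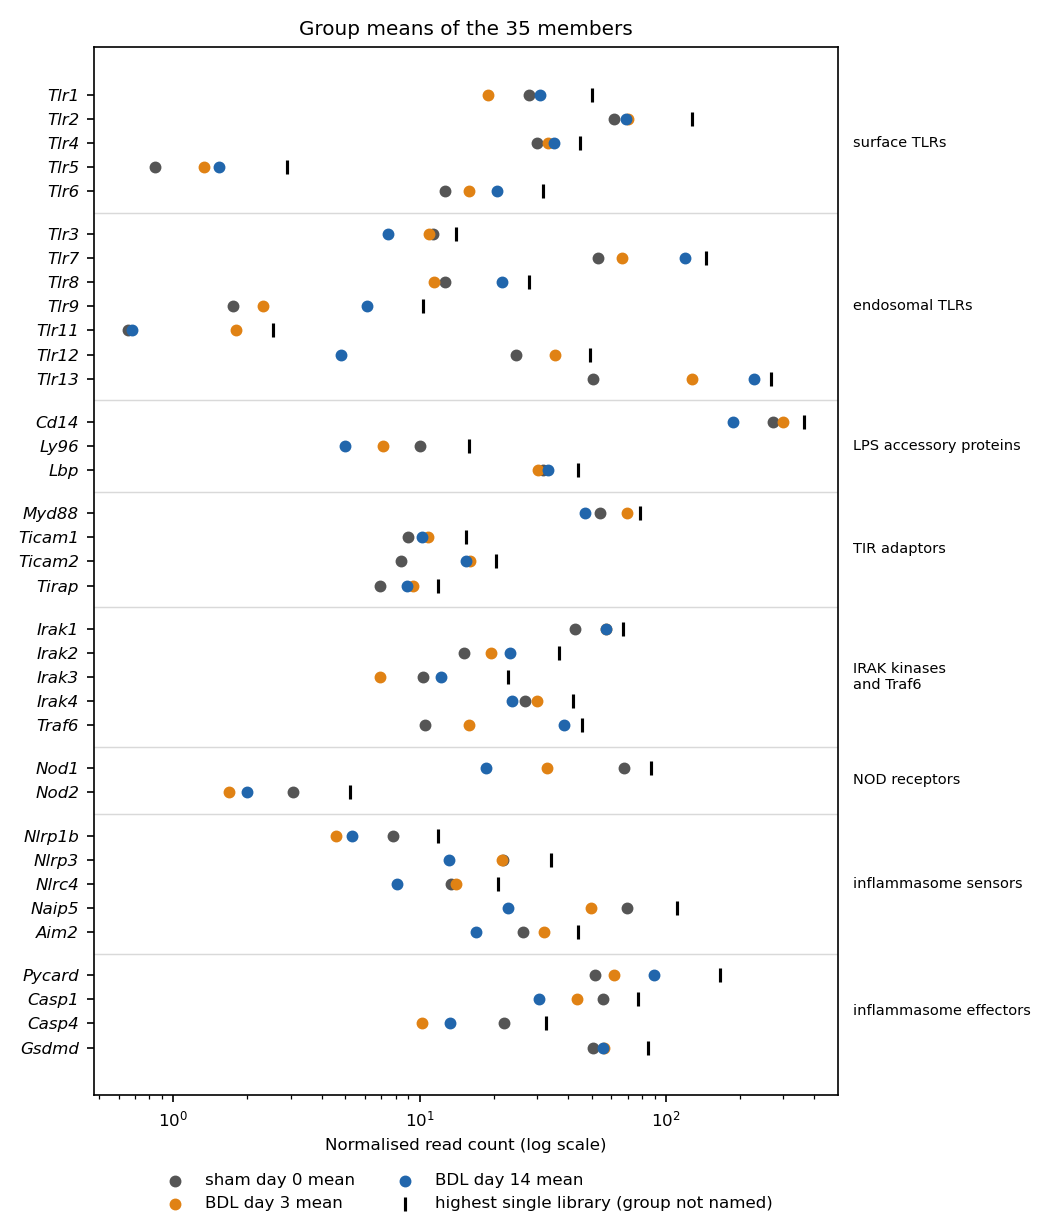
Normalised read counts of the 35 members on a log scale, grouped by role. Dots are the authors' means of the sham day 0, BDL day 3 and BDL day 14 groups, and the vertical tick is the highest single library, whose group is not named. Tlr13 goes from 50.8 to 228 and Tlr12 from 24.7 to 4.81, while the 3 dots of Gsdmd lie between 50.8 and 56.2.

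The other genes of the pathway were described in 6 lists. Among 9 genes of TLR trafficking and co-reception, 2 rose and 0 fell at each BDL time. *Unc93b1*, which carries the endosomal TLRs out of the endoplasmic reticulum, had means of 436, 612 and 468 and passed no test. *Cd36*, a scavenger receptor that works with *Tlr2* and *Tlr6*, rose at both times (70.8, 208 and 319), *Slc15a3*, an endolysosomal peptide carrier, rose at BDL day 3 (134, 348 and 168), and *Tollip* rose at BDL day 14 (26.6, 41 and 52.5). Of 14 kinases and adaptors below the receptors, 1 fell and 0 rose at BDL day 14, namely *Map3k8* (49.5, 46.3 and 22.3), a kinase of the ERK branch. Its log2 ratio was -1.15 with an adjusted p of 0.0114. *Ikbke*, a kinase that activates IRF factors, had 41.9, 29.5 and 20 (adjusted p = 0.0808).

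Among 9 NF-kB and IRF factors, 1 rose and 3 fell at BDL day 14. *Irf7*, the interferon regulatory factor below endosomal TLRs, went from 473 and 475 to 64.7, a log2 ratio of -2.87 (adjusted p = 6e-06), and *Irf3* from 52.1 and 39.6 to 24.8 (adjusted p = 0.0346). *Nfkb2*, of the alternative NF-kB branch, also fell, with 28.3, 21 and 11.1 (adjusted p = 0.042), while its partner *Relb* had 18.4, 15.4 and 9.15 (adjusted p = 0.132). At BDL day 3, 1 factor rose and 0 fell: *Irf8*, a factor of the myeloid lineage, which rose at both times (111, 209 and 182). *Nfkb1*, *Rel* and *Rela* had log2 ratios between -0.24 and 0.05 at BDL day 14.

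Of 14 negative regulators, 12 were kept, of which 1 fell at BDL day 3 and 2 at BDL day 14, with 0 that rose at either time. These were *Nfkbiz* (42.4, 7.54 and 9.39), an inducible nuclear IkB protein, at both times and *Tnfaip3* (57.9, 19.5 and 20.8), a ubiquitin editor, at BDL day 14. *Socs3*, a brake on cytokine receptors, had 39.4, 23.3 and 87 and *Sigirr*, a TIR domain decoy, had 3.16, 1.32 and 2.94, and both missed the test against day 0. Of 13 cytokines and enzymes that TLRs induce, 10 were kept. *Cxcl1* (18.7, 1.96 and 1.53) and *Cxcl2* (136, 34 and 24.1), chemokines for neutrophils, fell at both times, and *Il10* (43.3, 9.93 and 2.5) and *Il6* (3.81, 2.96 and 0.266) fell at BDL day 14. At its low counts, *Il6* had a log2 ratio of -3.84 with an SE of 1.22 (adjusted p = 0.0445). *Cxcl10*, a chemokine that interferons induce, had 23.9, 3.72 and 5.7 (adjusted p = 0.0831 at BDL day 14). *Tnf* had 15.7, 9.11 and 11.9 and did not pass the test. *Ccl3* had 33.6, 23.5 and 57.2 (adjusted p = 0.0708 at BDL day 14). *Ccl2* and *Ccl4* also had higher means at BDL day 14 than at day 0, and did not pass the test. The median log2 ratio of this list was -0.95 at the early and -1.32 at the late time, beside -0.02 and -0.04 over all genes. Of the 10 kept, 2 and 4 fell and 0 rose, where 5.71% and 8.97% of all genes fell.

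Of 20 other inflammasome genes, 18 were kept, of which 2 rose and 0 fell at BDL day 3 and 2 rose and 1 fell at BDL day 14. *Ninj1*, which ruptures the membrane of dying cells, had 198, 563 and 270 and *Il18bp*, the decoy of IL-18, had 261, 649 and 205, and both rose at BDL day 3. *Il18*, a substrate of caspase-1, went from 51.2 and 44.2 to 12.3 (log2 ratio -2.06, adjusted p = 0.00537 at BDL day 14). *P2rx7*, the ATP-gated channel upstream of *Nlrp3*, rose at BDL day 14 (26.5, 43.8 and 59.4, adjusted p = 0.00728), as did its partner in that branch, the kinase *Nek7* (39.1, 43.9 and 65.7, adjusted p = 0.0491). *Il1b* had 296, 153 and 138, and its log2 ratio of -1.1 at BDL day 14 had an adjusted p of 0.103.

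Markers of several cell types moved between the same groups. At BDL day 14 all 8 Kupffer cell markers fell, with a median log2 ratio of -2.64, beside the falls of *Tlr12*, *Nod1* and *Naip5*. At BDL day 3, the same list had a median log2 ratio of 0.88, with 2 of 8 that rose. *Tlr12* then stood at 35.4, above its day 0 mean of 24.7, while *Naip5* (49.6 against 69.9) and *Nod1* (32.9 against 67.9) stood below theirs. None of these 3 differences passed the test. Without the highest library of each gene, the log2 ratios at BDL day 3 were 0.21 for *Tlr12*, 0.01 for *Naip5* and -0.83 for *Nod1*. Of 8 recruited monocyte markers, 4 rose and 2 fell at BDL day 14, with a median log2 ratio of 2.39, beside the rises of *Tlr13*, *Tlr7* and *Traf6*. Their median was -0.35 at BDL day 3, with 1 that rose and 0 that fell, when *Tlr13* had already passed the test. The 10 macrophage markers had medians of 0.78 and 0.22, with 1 and 2 that rose. Hepatocyte markers fell in 6 and 7 of 8 genes (medians -1.97 and -3.17), B cell markers in 1 and 6 of 7 (-2.3 and -4.46), and T and NK cell markers in 0 and 6 of 8 (-1.75 and -3.83). Stellate cell and fibroblast markers fell in 6 and 5 of 8 genes (-4.36 and -3.31).

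Neutrophil markers fell in 0 and 3 of 7 genes kept (-1.14 and -1.92), dendritic cell markers in 0 and 3 of 6 (-1.3 and -0.06), cholangiocyte and progenitor markers in 1 and 0 of 8 (-1.38 and -0.69) and sinusoidal endothelial markers in 2 and 0 of 7 (-1.17 and -0.03). Of 10 reference genes, 1 rose by BDL day 3 and 2 by BDL day 14 (0.43 and 0.26). The part of these cell types in the values of the members was not tested. Relative to the geometric mean of the macrophage markers, *Tlr13*, *Traf6*, *Tlr12*, *Nod1* and *Naip5* kept their calls at BDL day 14, *Tlr7* lost its call at BDL day 14, and *Tlr13* lost its call at BDL day 3. The SE used on this scale left out the spread of the macrophage markers themselves between libraries, so these calls are approximate. On the same scale, on which the median of all genes was -0.66 at the early and -0.50 at the late time, *Nod1*, *Naip5* and *Casp4* passed the test downward at BDL day 3, and *Ly96*, *Nlrp3*, *Aim2*, *Casp1* and *Casp4* did so at BDL day 14, where 17.9% and 17.6% of all genes fell.

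**Figure D4:**
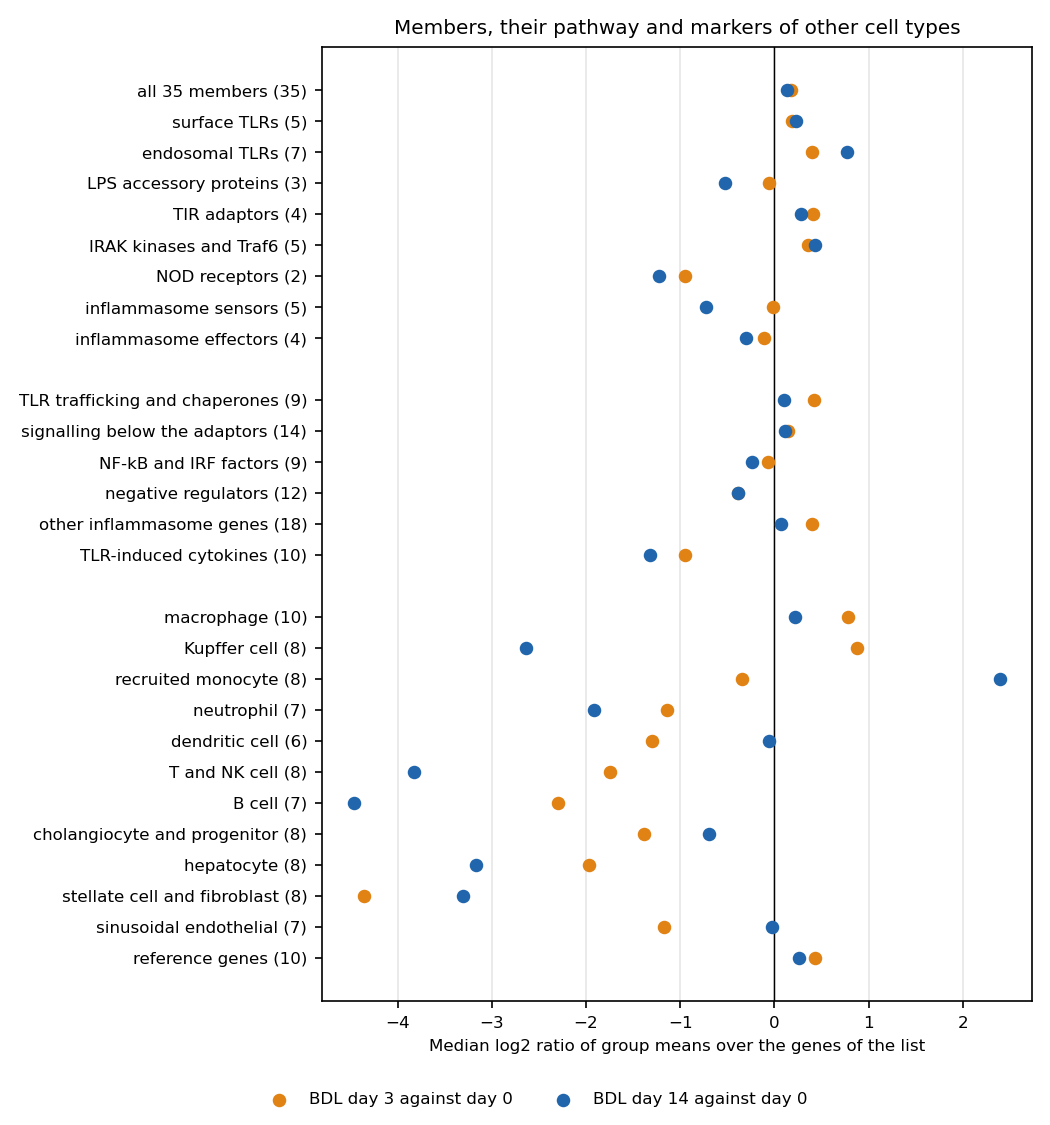
Median log2 ratio of group means against day 0 over the genes of each list, for BDL day 3 and BDL day 14, with the number of genes kept in brackets. The upper block holds the members by role, the middle block the other pathway genes and the lower block markers of cell types. The members' medians of 0.17 and 0.13 lie near 0, while the Kupffer cell list goes from 0.88 to -2.64 and the recruited monocyte list to 2.39.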

How the data were processed

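GFP(+) cells of mouse liver were profiled by mRNA sequencing at day 0, BDL day 3 and BDL day 14. Per the study's methods, reads were quality-trimmed, mapped with STAR to mm10 and assigned to genes of GENCODE M18, and counts were scaled to their upper quartile, all in Partek Flow by the authors. The submitters' processing notes name STAR 2.6.1d, and the methods name another version. Counting by strand is not given in the sources used here. The deposited table holds signal values, namely the authors' least squares means of the normalised counts per group, the arithmetic and geometric means over all libraries and the highest library. It has 0 columns of values per library, so raw counts, depth and counting error were not analysed here. The labels list 12 libraries, and group sizes of 3, 3 and 4 gave back the overall mean with a 99th percentile deviation of 0.469%, against 4.93% for the next best sizes. The authors' columns of p-value, FDR, ratio, log2 ratio, fold change and fold change limits were not used.

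Genes with summed normalised counts under 10 were left out (4080), and 2 repeated symbols were dropped. The planned call was a ratio of group means above 1.5. The test was added after the table was seen. The sum over groups of library number times log mean, minus 10 times the log geometric mean, is to second order the within-group sum of squares on the natural log scale divided by 2. The resulting variance (7 degrees of freedom) was moderated by limma 3.58.1 in R 4.3.3 with a trend on the mean (prior degrees of freedom 8.83, 15.8 in all), under the assumption of equal log-scale spread in the groups. Ranges of library values used the same sum and allowed for the rounding of the table. The recovered spread, the test, the overlap rules and the library ranges were tried on simulated data. Those data had the same log-scale spread in every group and no counting error. They could therefore not check the assumption of equal spread or the behaviour of low counts. The scalings, the removal of the highest library and the motif search were not simulated. Coordinates are from GENCODE M21 (GRCm38) and equal those of the table for 16934 of 16950 symbols.

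Members and lists were chosen with earlier results of these data known. By rule, all members were given, and of each pathway list at most 4 genes past 2-fold against day 0, those of the highest mean. Beyond it, *Unc93b1*, *Tollip*, *Irf8*, *Nfkb1*, *Rel*, *Rela*, *Il6*, *Tnf*, *Ccl2*, *Ccl3*, *Ccl4*, *Il18*, *Nek7*, *Naip1*, *Naip2*, *Naip6*, *Mefv*, *Nlrp6*, *Nlrp12*, *Krt19* and *Prom1* were chosen after their values were seen. Alternatives were other scalings, filters, pseudocounts, folds and variance models, and the highest library of each gene taken out of the group of highest mean that could hold it.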

Additional observations from a re-analysis of the deposited data

Results flagged for a closer look

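For 5 members BDL day 14 differed from BDL day 3 at an adjusted p of 0.05 or less by the limma test. *Tlr7*, *Tlr13*, *Traf6* and *Naip5* lost this call when the spread was moderated with no trend on the mean or at an adjusted p of 0.01, and *Tlr12* alone kept it under both. The log2 ratio between these times was -2.88 for *Tlr12*, which went from a mean of 35.4 to 4.81. It was 1.28 for *Traf6* (15.9 to 38.6), 0.86 for *Tlr7* (66.2 to 120), 0.83 for *Tlr13* (128 to 228) and -1.11 for *Naip5* (49.6 to 22.9). The mean of *Tlr12* was higher at BDL day 3 than at day 0 (35.4 against 24.7, a difference that did not pass the test) and then fell to the lowest of the 3. The Kupffer cell markers had the same order of medians, 0.88 at the early and -2.64 at the late time, and their part in the course of *Tlr12* was not tested.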

How the results depend on the processing

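No paired analysis was possible because no value per library was analysed, and leaving out each replicate in turn was not run for the same reason. The 6 members called at BDL day 14 against day 0 kept their calls under every alternative that has a test, except *Tlr7* relative to the macrophage markers. Scaling to the same total moved the median of all genes from -0.04 to 0.29 at BDL day 14. With it 8 members passed the test upward there and 3 downward, where 14.5% and 6.75% of all genes did. By fold, 12 were higher and 4 lower, against 35.5% and 21% of all genes. The 8 that passed the test upward included *Tlr6*, *Tlr8*, *Ticam2*, *Irak1* and *Pycard*, which did not pass as deposited, and *Irak1* then also passed the fold. *Tlr3*, *Nod2*, *Nlrp3*, *Nlrc4*, *Aim2*, *Casp1* and *Casp4* were no longer past the fold downward. With this scaling 1 member fell from BDL day 3 to BDL day 14 (2.86% of all genes). Against the macrophage markers, the median of the members at BDL day 3 was -0.48, beside -0.66 over all genes, with 2 past the fold upward and 13 downward (4.34% and 53.9% of all genes) and 0 and 3 past the test (0.714% and 17.9%). At BDL day 14 the medians were -0.34 and -0.50. Of the members, 4 were then past the fold upward and 15 downward (8.92% and 46.3% of all genes), and 2 and 8 past the test (2.44% and 17.6%). From BDL day 3 to BDL day 14, 1 member fell (2.99%). *Traf6* turned to -0.04 at BDL day 3 against the macrophage markers. Of the calls of BDL day 14 against BDL day 3, 0 upward and 1 downward (*Tlr12*) held with no trend on the mean (2.58% and 2.46% of all genes) or at an adjusted p of 0.01 (1.70% and 1.85%). With a lognormal variance 1 each held (*Tlr13*, *Tlr12*), against 3.13% and 3.17% of all genes. By fold at BDL day 3, 3 higher and 2 lower members were left with a mean of at least 10, against 22.9% and 15.0% of all genes. With a pseudocount of 1, 3 were higher there, against 16.8%. With a fold above 2, 2 were higher and 2 lower at BDL day 3, against 7.45% and 20.7% of all genes. By BDL day 14, 4 were higher and 3 lower (9.77% and 19.6%), and between these times 2 were higher and 3 lower (13.1% and 10.1%). Without each gene's highest library, 2 members were lower at BDL day 3 (22.7% of all genes). At BDL day 14, 6 were then higher and 5 lower (18.3% and 22.2%). *Nod2* turned to 0.02 at BDL day 14 with its highest library placed at day 0, though that library could also lie at BDL day 14. Of 304 alternative log2 ratios of single members, 286 moved by less than 1 SD between libraries, 16 by more, and 2 changed sign. The 304 include ratios under the other filters, which cannot change a ratio of group means. They also include a median-ratio scaling whose factors were 1.01, 1.01 and 1.000. Much of this stability was therefore fixed in advance. All alternatives with a test, the macrophage scaling and the placing of the highest library by the geometric mean were chosen after seeing the data.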
